A study of Arabidopsis thaliana with 12 samples.

Results

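The morning-phased clock genes are 10 Arabidopsis thaliana genes, taken by their AGI identifiers out of 33602 genes in the count table. They are LHY (AT1G01060), CCA1 (AT2G46830), APRR9 (AT2G46790), APRR7 (AT5G02810), RVE8 (AT3G09600), RVE4 (AT5G02840), RVE1 (AT5G17300), RVE2 (AT5G37260), LNK1 (AT5G64170) and LNK2 (AT3G54500). All 10 were found and all 10 passed the filter on low counts in both comparisons. RNA came from the aerial parts of plants 6 days old and gave 12 sequenced libraries, with 4 groups of 3. The mutant tfIIfα1 (genotype label tflfalpha-1) and a wild type titled 1171WTCol3 were prepared with a stranded mRNA kit. The mutant tfIIfα2 (genotype label tflfalpha-2) and a wild type titled WTCol0 were prepared with a stranded kit for total RNA. Both lines are mutant for RAP74, which encodes the large subunit of TFIIF, one of the general factors with which RNA polymerase II begins transcription. The labels do not say what kind of mutation each allele is. All groups were kept for 3 days at 4 °C and then grown at about 21 °C on medium with 1% sucrose under 16 h of light and 8 h of darkness. The labels give no hour of harvest, on which the level of every gene described here depends. Each mutant was set against the wild type prepared with the same kit. Allele, kit and wild-type line cannot be told apart where the comparisons differ.

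The plant circadian clock is a set of genes that repress or activate each other in turn over the day. LHY and CCA1 encode MYB-type transcription factors made around dawn that repress the genes of the evening, among them TOC1. APRR9 and APRR7 encode pseudo-response regulators that follow during the morning and day and repress LHY and CCA1. RVE8 and RVE4 are MYB-type relatives of LHY and CCA1 that activate evening genes, and LNK1 and LNK2 are coactivators that work with them. RVE1 and RVE2 (also called CIR1) are further MYB-type relatives with transcripts that peak around dawn, and RVE1 links the clock to auxin synthesis.

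The DNA upstream of the genes is shown first because the G-box and the evening element, both short motifs, lay there in different shares of the morning and evening clock genes. The 250 bases before the annotated gene start were read from the RefSeq TAIR10.1 genome and its own annotation by AGI identifier, and both strands were searched. The motifs were the G-box CACGTG, bound by bHLH and bZIP factors, the evening element AAATATCT and the CCA1-binding site AAAAATCT, bound by CCA1 and LHY, the TCP site GGNCCCAC, bound by TCP factors, and the LUX sites GATTCG and GATACG. None of these motifs contains another, though matches of 2 motifs could share letters. Below are 4 morning genes, which between them hold 5 G-boxes, and for contrast TOC1 and FKF1 of the evening side, which hold evening elements. Capitals mark every match to any of the motifs, and each sequence is given 5′ to 3′ on the strand of its gene. LHY lies at chr1:37872-38121 (minus strand), CCA1 at chr2:19245341-19245590 (plus), APRR9 at chr2:19232357-19232606 (plus), APRR7 at chr5:642031-642280 (minus), TOC1 at chr5:24674713-24674962 (plus) and FKF1 at chr1:25508389-25508638 (plus), all TAIR10.1.
LHY: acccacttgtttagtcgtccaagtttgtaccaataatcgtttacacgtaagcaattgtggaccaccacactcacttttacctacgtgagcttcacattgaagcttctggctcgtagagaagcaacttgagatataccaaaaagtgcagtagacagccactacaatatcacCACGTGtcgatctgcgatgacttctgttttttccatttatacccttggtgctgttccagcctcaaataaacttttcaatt
CCA1: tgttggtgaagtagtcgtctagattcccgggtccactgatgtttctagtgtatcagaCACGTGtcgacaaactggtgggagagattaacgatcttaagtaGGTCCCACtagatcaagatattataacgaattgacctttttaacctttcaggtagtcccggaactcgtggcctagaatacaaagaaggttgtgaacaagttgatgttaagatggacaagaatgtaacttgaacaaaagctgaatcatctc
APRR9: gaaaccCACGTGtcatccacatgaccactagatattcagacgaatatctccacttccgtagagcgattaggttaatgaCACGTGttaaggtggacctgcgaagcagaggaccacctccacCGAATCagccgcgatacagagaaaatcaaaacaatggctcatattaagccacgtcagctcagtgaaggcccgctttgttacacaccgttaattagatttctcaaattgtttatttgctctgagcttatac
APRR7: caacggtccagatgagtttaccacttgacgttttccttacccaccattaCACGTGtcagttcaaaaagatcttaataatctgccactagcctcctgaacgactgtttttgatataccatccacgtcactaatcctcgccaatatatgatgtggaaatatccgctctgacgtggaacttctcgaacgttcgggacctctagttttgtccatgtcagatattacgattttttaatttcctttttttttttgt
TOC1: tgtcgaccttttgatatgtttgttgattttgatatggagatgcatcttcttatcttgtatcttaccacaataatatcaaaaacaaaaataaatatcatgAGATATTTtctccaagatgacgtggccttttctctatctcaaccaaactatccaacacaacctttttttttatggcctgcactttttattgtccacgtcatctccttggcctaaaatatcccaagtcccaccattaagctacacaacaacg
FKF1: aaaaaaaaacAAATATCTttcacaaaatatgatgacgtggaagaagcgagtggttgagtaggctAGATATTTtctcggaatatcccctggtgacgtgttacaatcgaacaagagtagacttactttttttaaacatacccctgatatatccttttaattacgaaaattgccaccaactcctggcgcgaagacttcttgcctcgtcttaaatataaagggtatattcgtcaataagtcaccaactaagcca

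A G-box lay in the window of 6 of the 10 morning genes (LHY, CCA1, APRR9, APRR7, RVE1 and RVE2), against 6.58% of 26726 protein-coding genes. Only APRR9 among the 10 held it at 2 places. CCA1 also held a TCP site, which 1.11% of all genes held. No morning gene held the evening element, against 6 of 10 evening clock genes and 4.84% of all genes. The evening element also lay before 4 of 13 morning output and 3 of 4 evening output genes (genes that the clock drives). It lay before 1 of 7 RVE and LNK relatives. The G-box lay before 2 of 10 evening clock genes, 3 of 13 morning output genes and 3 of 7 relatives. A CCA1-binding site lay before RVE2, against 1 of 10 evening clock genes and 6.74% of all genes. A LUX site of the GATTCG form lay before APRR9 (0 of 10 evening clock genes, 7.88% of all genes). The GATACG form lay before RVE4 and LNK2 (2 of 10 evening clock genes, 4.64% of all genes). RVE8 and LNK1 held none of these letters in this window. The matches describe letters in a window of 250 bases and do not show binding.

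**Figure D1:**
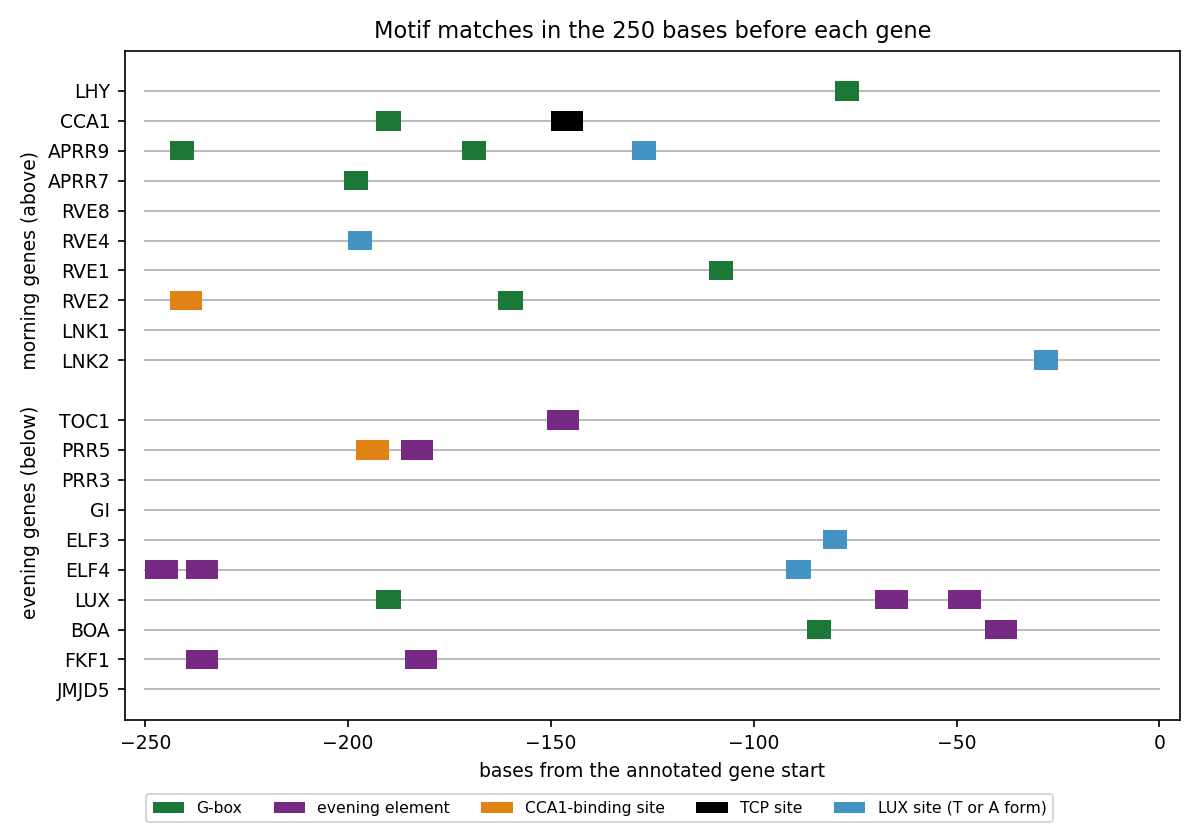
Motif matches in the 250 bases before the annotated start of each of the 10 morning clock genes (upper block) and 10 evening clock genes (lower block). The x axis is distance from the gene start in bases, and each coloured box is 1 match on either strand. Green boxes (G-box) stand before 6 morning and 2 evening genes, and purple boxes (evening element) stand before 0 morning and 6 evening genes.

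Each mRNA library summed to between 55915638 and 66711096 counts. Each total RNA library summed to between 33292996 and 37456773, of which 57.3% to 62.5% fell on plastid genes. Counts of single members ran between 115 and 13644 in mRNA and between 35 and 3972 in total RNA. Of the 3 columns used for tfIIfα1, 2 have headers that name the other allele and were placed by their run prefix, and they are called libraries a and b. Their counts were even for 72.24% and 69.55% of detected genes, against 57.6% to 61.5% in the other mRNA libraries. RAP74 averaged 15.6 ± 1.13 CPM in tfIIfα1 and 20.3 ± 1.67 CPM in its wild type, and 5.55 ± 0.63 CPM in tfIIfα2 and 7.90 ± 0.278 CPM in its wild type (SD, n = 3 each). The log2 differences were -0.38 ± 0.08 and -0.51 ± 0.12 (adjusted p = 0.0022 and 0.066, edgeR, and 0.017 with the replicate block in tfIIfα2). Leaf markers summed to 78800 to 80700 CPM in tfIIfα1, 78100 to 85200 CPM in its wild type, 13000 to 21100 CPM in tfIIfα2 and 12500 to 20500 CPM in its wild type. Of the 8 leaf markers, 2 rose and 3 fell in tfIIfα1 in edgeR, beside 18.7% higher and 19.6% lower over all genes. PSAL at -1.14, PSAG at -0.80 and LHB1B1 at -0.41 (log2) were the 3 that fell, and RCA at 0.20 and PRK at 0.25 the 2 that rose. PSAL (AT4G12800) lies in a chromosome 4 segment whose genes were removed in an alternative fit of the mRNA libraries. It was at -0.08 ± 0.32 in tfIIfα2 (adjusted p = 0.92, edgeR). In tfIIfα2, 0 of 8 passed in edgeR or limma-voom (1 lower at an unadjusted p under 0.05 in each). In DESeq2, which called 1345 of 18863 genes in either direction, 1 fell. The part of these leaf marker changes in the results that follow was not tested. The 10 root markers summed to 5.41 to 8.41 CPM in tfIIfα1, 4.32 to 11.2 CPM in its wild type, 3.57 to 5.33 CPM in tfIIfα2 and 1.38 to 2.47 CPM in its wild type. RHD6 was at 0 in tfIIfα1, and 3 root markers had 3 or fewer counts over the group in tfIIfα1, 1 in tfIIfα2 and 3 in the wild type of the total RNA kit. The part of the higher root marker level of tfIIfα2 in the results that follow was not tested. In bulk tissue, fewer cells of a type and less RNA per cell cannot be told apart. Nothing in the labels describes the replicates as separate cultures. The p-values therefore cover the spread between these samples, which may be technical.

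The comparison of tfIIfα1 with its wild type asked which members differed in the mRNA libraries. LHY, CCA1, APRR9, RVE8 and LNK2 rose and APRR7 fell, while RVE4, RVE1, RVE2 and LNK1 did not pass the test. Of all 20371 genes tested, 38.4% were called by edgeR (18.7% higher, 19.6% lower), against 6 of the 10 members (5 higher, 1 lower). The median log2 fold change was 0.40 over the members and 0.00 over all genes. In 6 members every tfIIfα1 library lay above every wild-type library, as for 24.2% of all genes, and in 1 every tfIIfα1 library lay below, as for 25.2%.

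The comparison of tfIIfα2 with its wild type asked the same in total RNA. LHY, CCA1, RVE8 and LNK2 rose, and no member fell in edgeR. Of 18863 genes tested, 3.2% were called (1.48% higher, 1.72% lower), against 4 of the 10 members, all higher. When each library was left out in turn, 1 to 3 members were called, and 4 to 169 of all genes were, in place of 603. The median log2 fold change was 0.61 over the members and 0.00 over all genes. In 6 members every tfIIfα2 library lay above every wild-type library, as for 13.1% of all genes, and in 1 every tfIIfα2 library lay below, as for 15.6%. No member was called lower in DESeq2 or limma-voom either, and 1 member (APRR7) had a lower value with an unadjusted p under the threshold of 0.05 in edgeR. The titles number these libraries but do not state that the numbers are pairs. Same-numbered libraries correlated at 0.64, 0.23 and 0.53 in their deviations from group means. The pairing is thus an assumption drawn from these same counts, weakest for number 2. With the number as a block, 18.7% of all genes were called (9.56% higher, 9.18% lower) and 8 members were, 7 higher and 1 lower, with APRR9, APRR7, RVE4 and RVE1 added.

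**Figure D2:**
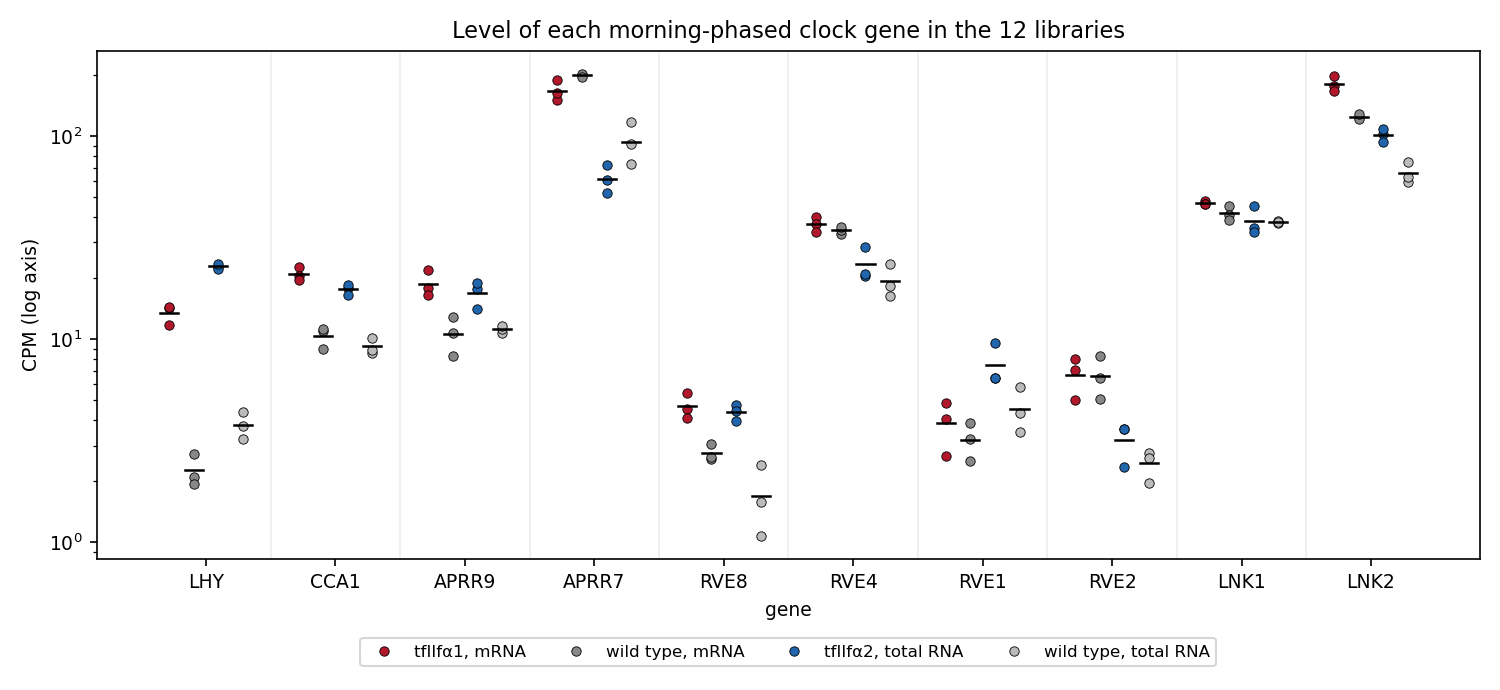
CPM (log axis) of each member in each library, with 4 groups per gene from left to right as in the legend. Points are libraries and bars are group means over 3 libraries. LHY shows the widest gap, 11.7 to 14.4 CPM in tfIIfα1 against 1.95 to 2.73 CPM in its wild type and 22.2 to 23.6 CPM in tfIIfα2 against 3.23 to 4.4 CPM in its wild type.

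LHY, the dawn repressor, was the member with the largest change in both comparisons. It had 14.2, 11.7 and 14.4 CPM in tfIIfα1 libraries 1, a and b, against 2.11, 1.95 and 2.73 CPM in its wild type. The lowest mutant library was thus well above the highest wild-type library. The fold change was 5.90 (log2 2.56 ± 0.13 SE, adjusted p = 8.9e-09, edgeR). In total RNA, LHY had 22.8, 22.2 and 23.6 CPM in tfIIfα2, against 4.4, 3.23 and 3.75 CPM in its wild type. The groups again lay far apart, with a fold change of 6.01 (log2 2.59 ± 0.13 SE, adjusted p = 0.00082, edgeR). Without libraries a and b, the log2 fold change in tfIIfα1 was 2.64 ± 0.17 (adjusted p = 1e-06, edgeR).

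CCA1, the close relative of LHY with the same role at dawn, changed by less. It had 22.8, 20.4 and 19.5 CPM in tfIIfα1, against 11, 8.93 and 11.3 CPM in its wild type. All mutant libraries were higher, by 2.01-fold (log2 1.01 ± 0.10 SE, adjusted p = 1.9e-06, edgeR). In tfIIfα2 it had 18, 18.6 and 16.5 CPM, against 10.2, 8.58 and 8.89 CPM in its wild type. There too the groups did not overlap, and the fold change was 1.91 (log2 0.94 ± 0.11 SE, adjusted p = 0.017, edgeR, and 0.00095 with the replicate block). The call in tfIIfα2 was lost without wild-type library 2 (adjusted p = 0.10) or 3 (0.079), or without mutant library 1 (0.061) or 2 (0.080), while the log2 fold change stayed between 0.88 and 1.02. Without libraries a and b, CCA1 was at 1.13 ± 0.12 in tfIIfα1 (adjusted p = 3.9e-05, edgeR).

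The level of LHY relative to CCA1 was higher in every mutant library than in every wild-type library of the same kit. Per kilobase of annotated exon, the log2 ratio of the level of LHY to that of CCA1 was -1.02, -1.14 and -0.77 in tfIIfα1, against -2.71, -2.52 and -2.38 in its wild type. It was 0.01, -0.07 and 0.19 in tfIIfα2, against -1.55, -1.74 and -1.57 in its wild type. LHY therefore stood below CCA1 in each wild-type and each tfIIfα1 library, and level with it in tfIIfα2.

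APRR9 and APRR7, the pseudo-response regulators of the morning and day, moved in opposite directions. APRR9 had 22.0, 17.9 and 16.5 CPM in tfIIfα1, against 12.9, 8.30 and 10.8 CPM in its wild type, with no overlap. It rose 1.76-fold (log2 0.81 ± 0.14 SE, adjusted p = 0.00029, edgeR), and was at 1.04 ± 0.16 without libraries a and b (adjusted p = 0.00069, edgeR). In total RNA it had 14.1, 17.6 and 18.9 CPM in tfIIfα2, against 10.8, 11.2 and 11.6 CPM in its wild type. Every tfIIfα2 library was higher, but the log2 difference of 0.59 ± 0.13 had an adjusted p of 0.057 in edgeR, 0.0069 in DESeq2 and 0.0061 with the replicate block.

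APRR7 had 189, 151 and 164 CPM in tfIIfα1, against 201, 203 and 196 CPM in its wild type. The mutant libraries were lower without overlap, though library 1 came close to the wild type. The log2 fold change was -0.25 ± 0.07 (adjusted p = 0.014, edgeR). This call rested on libraries a and b, since it was lost without library a (-0.18, adjusted p = 0.054), without library b (-0.24, adjusted p = 0.051) and without both (-0.08 ± 0.07, adjusted p = 0.47). In total RNA it had 52.4, 60.9 and 72.3 CPM in tfIIfα2, against 72.9, 91.5 and 117 CPM in its wild type. The highest mutant library lay just below the lowest wild-type library. The log2 difference of -0.60 ± 0.19 did not pass (adjusted p = 0.12, edgeR) but did with the replicate block (-0.59 ± 0.09, adjusted p = 0.0038). Between same-numbered libraries APRR7 differed by -0.48, -0.59 and -0.69 on the log2 scale, so it was lower in 3 of 3.

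**Figure D3:**
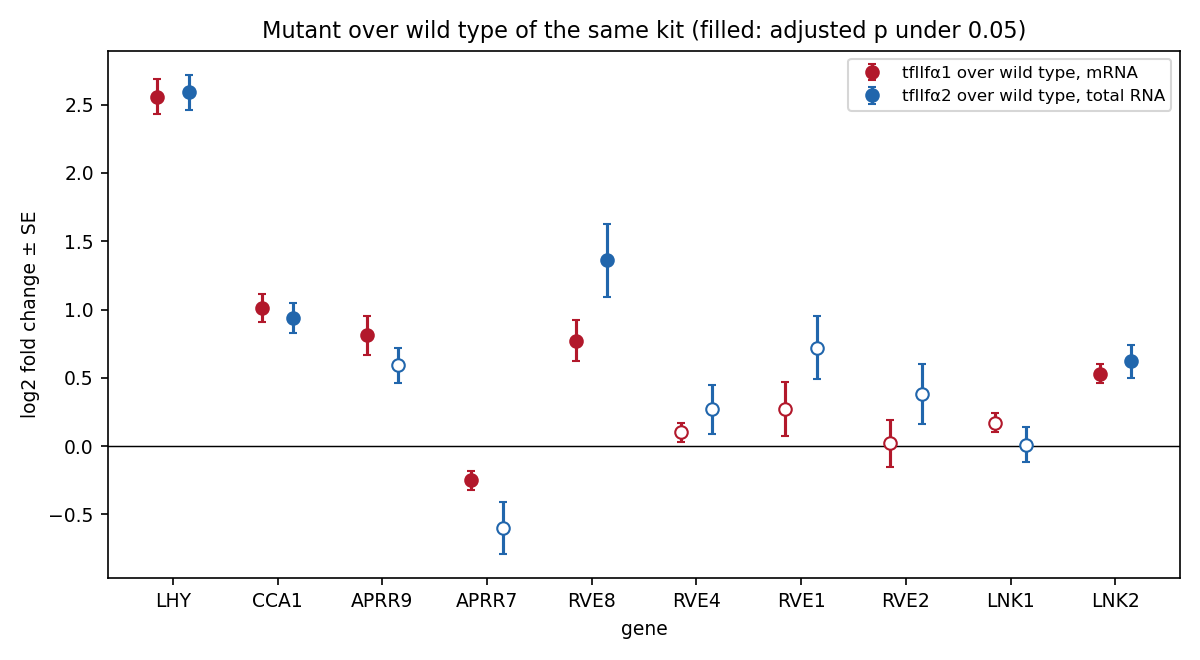
Log2 fold change of each member, mutant over the wild type of the same kit, with SE bars from edgeR (n = 3 libraries a group). Filled points passed an adjusted p of 0.05. LHY stands at 2.56 and 2.59, LNK1 near 0, and APRR7 is the member below 0 in both comparisons.

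RVE8 and RVE4, the activators of evening genes, gave different calls, and the difference between them was not tested. RVE8 had 4.53, 5.44 and 4.12 CPM in tfIIfα1, against 2.57, 3.06 and 2.64 CPM in its wild type. It rose 1.71-fold without overlap (log2 0.77 ± 0.15 SE, adjusted p = 0.00077, edgeR), and was at 0.72 ± 0.19 without libraries a and b (adjusted p = 0.018, edgeR). In tfIIfα2 it had 4.73, 4.45 and 3.95 CPM, against 2.41, 1.59 and 1.08 CPM in its wild type. Here it rose 2.57-fold, again with no overlap (log2 1.36 ± 0.27 SE, adjusted p = 0.043, edgeR, and 0.0029 with the replicate block). Its wild-type counts in total RNA were low, 96, 54 and 35, and the call was kept without wild-type library 1 (adjusted p = 0.032). It was lost when any of the other 5 libraries was left out (adjusted p from 0.080 to 0.15, log2 fold change from 1.12 to 1.42). RVE4 had 40.2, 36.9 and 33.6 CPM in tfIIfα1, against 32.9, 34.7 and 35.9 CPM in its wild type. In tfIIfα2 it had 20.5, 21.0 and 28.6 CPM, against 16.3, 18.3 and 23.4 CPM in its wild type. The groups overlapped in both kits, and the log2 differences of 0.10 ± 0.07 and 0.27 ± 0.18 had adjusted p of 0.32 and 0.42 in edgeR. With the replicate block RVE4 in tfIIfα2 had an adjusted p of 0.048.

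LNK1 and LNK2, the coactivators, gave different calls too, likewise with no test between them. LNK2 had 198, 177 and 168 CPM in tfIIfα1, against 125, 121 and 129 CPM in its wild type. It rose 1.45-fold (log2 0.53 ± 0.07 SE, adjusted p = 2.9e-05, edgeR), and was at 0.67 ± 0.07 without libraries a and b (adjusted p = 4.7e-05, edgeR). In tfIIfα2 it had 103, 94.2 and 108 CPM, against 59.6, 63.2 and 75.1 CPM in its wild type. It rose 1.54-fold (log2 0.62 ± 0.12 SE, adjusted p = 0.041, edgeR, and 0.0035 with the replicate block). No group overlapped, but the second call was lost when any of the 6 total RNA libraries was left out (adjusted p from 0.080 to 0.15, log2 fold change from 0.56 to 0.73). LNK1 had 47.9, 46.2 and 46.2 CPM in tfIIfα1, against 45.4, 41.1 and 38.6 CPM in its wild type. In tfIIfα2 it had 35.3, 45.4 and 33.7 CPM, against 37.3, 38.4 and 37.7 CPM in its wild type. Its log2 difference was 0.17 ± 0.07 in tfIIfα1, where the groups did not overlap (adjusted p = 0.071, edgeR, and 0.03 without wild-type library 1), and 0.01 ± 0.13 in tfIIfα2 (adjusted p = 0.97).

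The annotation places other genes on the opposite strand of LNK1, LNK2 and RVE1. AT5G64160 overlaps LNK1 by 245 bases, ran between 659 and 782 counts in mRNA and between 139 and 197 in total RNA, and was at a log2 difference of 0.17 ± 0.08 in tfIIfα1 and 0.16 ± 0.15 in tfIIfα2 (adjusted p = 0.12 and 0.58, edgeR). AT3G54490 overlaps LNK2 by 93 bases and had 1 to 14 counts per library. AT3G08405 overlaps LNK2 by 266 bases and AT5G17305 overlaps RVE1 by 225 bases, and these 2 are absent from the count table. The libraries were stranded, but the strand setting of the counting is not given in the sources used here, so reads in these overlaps are uncertain.

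RVE1 and RVE2 did not pass in either comparison in edgeR. RVE1 had 4.88, 4.03 and 2.66 CPM in tfIIfα1, against 3.86, 2.51 and 3.23 CPM in its wild type, which overlap. In total RNA it had 6.47, 6.44 and 9.58 CPM in tfIIfα2, against 3.49, 4.32 and 5.84 CPM in its wild type. There every tfIIfα2 library was higher, and the log2 difference of 0.72 ± 0.23 (adjusted p = 0.13, edgeR) passed with the replicate block (adjusted p = 0.0043). RVE2 had 7.08, 8.01 and 5 CPM in tfIIfα1, against 8.27, 5.09 and 6.47 CPM in its wild type. In tfIIfα2 it had 3.62, 2.34 and 3.60 CPM, against 2.76, 1.97 and 2.61 CPM in its wild type. The groups overlapped in both kits, with log2 differences of 0.02 ± 0.17 and 0.38 ± 0.22 (adjusted p = 0.95 and 0.36, edgeR). Same-numbered tfIIfα2 libraries were higher in RVE2 in 3 of 3 (0.39, 0.25 and 0.46 on the log2 scale), with an adjusted p of 0.095 with the block.

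Levels were compared between genes only as CPM per kilobase of annotated exon. In the mRNA libraries the order in tfIIfα1 was LNK2 (61.9), APRR7 (52), RVE4 (17.5), LNK1 (17.5), APRR9 (8.78), CCA1 (7.68), RVE2 (6.83), LHY (3.92), RVE8 (2.00) and RVE1 (1.91). In its wild type it was APRR7 (61.9), LNK2 (42.8), RVE4 (16.4), LNK1 (15.6), RVE2 (6.75), APRR9 (4.99), CCA1 (3.82), RVE1 (1.59), RVE8 (1.17) and LHY (0.662). LHY was thus the lowest of the 10 in that wild type and stood above RVE8 and RVE1 in each tfIIfα1 library. The ranges of neighbours overlapped in tfIIfα1 for LNK2 and APRR7, for RVE4 and LNK1, for APRR9, CCA1 and RVE2, and for RVE8 and RVE1. In its wild type they overlapped for RVE4 and LNK1, for RVE2, APRR9 and CCA1 in succession, and for RVE1 and RVE8.

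In total RNA the order in tfIIfα2 was LNK2 (34.8), APRR7 (19.1), LNK1 (14.3), RVE4 (11.1), APRR9 (7.89), LHY (6.68), CCA1 (6.50), RVE1 (3.72), RVE2 (3.25) and RVE8 (1.87). In its wild type it was APRR7 (29.0), LNK2 (22.6), LNK1 (14.2), RVE4 (9.17), APRR9 (5.23), CCA1 (3.39), RVE2 (2.50), RVE1 (2.26), LHY (1.11) and RVE8 (0.721). The first place was held by LNK2 in both mutants and by APRR7 in both wild types. APRR7 and LNK2 overlapped in tfIIfα1 and in the wild type of the total RNA kit, so their order there is not beyond the spread. Neighbours also overlapped in tfIIfα2 for APRR7, LNK1 and RVE4 in succession, for APRR9, LHY and CCA1 in succession, and for RVE1 and RVE2. In its wild type they overlapped for RVE2 and RVE1 and for LHY and RVE8.

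The difference between the comparisons was tested as an interaction over 12 libraries, where 0.772% of 20602 genes were called. No member was called in edgeR (0 with an unadjusted p under 0.05), in DESeq2 (0 unadjusted) or in limma-voom (1 unadjusted). The smallest adjusted p in edgeR was 0.62, that of RVE8, whose log2 fold change was 0.58 ± 0.30 larger in tfIIfα2. For LHY the difference between the 2 comparisons was 0.02 ± 0.21, for CCA1 -0.08 ± 0.15 and for LNK2 0.09 ± 0.14 (log2, tfIIfα2 minus tfIIfα1). The test was also run on simulated counts of 20602 genes, of which few were changed by a known fold. It recovered 4.48% of genes that differed by 1.5-fold, 31.3% by 2-fold and 77.3% by 4-fold. These shares are over randomly drawn genes, not over the members. A member that was not called may therefore still differ between the comparisons.

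Relatives of the members were mixed. Of 7 RVE and LNK relatives, 3 rose and 0 fell in tfIIfα1 (edgeR), beside 18.7% higher and 19.6% lower over all genes. In tfIIfα2, 1 rose and 0 fell in edgeR, beside 1.48% higher and 1.72% lower over all genes. There, 0 were lower at an unadjusted p under 0.05 in edgeR. With the replicate block 3 were higher and 1 lower, beside 9.56% and 9.18% of all genes. Their medians were -0.04 and -0.10. LNK3 (T2E22.34 in the deposited table) averaged 12.4 CPM in tfIIfα1 and 5.86 CPM in its wild type, and 14.1 CPM in tfIIfα2 and 6.32 CPM in its wild type. It rose in both, with log2 fold changes of 1.08 ± 0.10 and 1.16 ± 0.15 (adjusted p = 1.8e-06 and 0.02, edgeR). LNK4 was at 0.39 ± 0.06 and 0.39 ± 0.18 and passed in tfIIfα1 and, with the block, in tfIIfα2 (adjusted p = 0.00025 and 0.024). RVE3 was at 1.24 ± 0.35 and 1.72 ± 0.37, from levels under 1 CPM in every group mean (adjusted p = 0.011 and 0.053, and 0.0066 with the block). RVE5, RVE6, RVE7 and RVE7L lay between -0.04 and -0.32 and did not pass in edgeR, and RVE7 (-0.33 ± 0.08) passed with the block. RVE7L is a close relative of RVE7, so the split of their reads is uncertain.

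On the evening side the direction was the opposite. Of 10 evening clock genes, 9 fell and 0 rose in tfIIfα1, beside 19.6% lower and 18.7% higher over all genes. Their median was -0.86 (log2). In tfIIfα2, 4 of the 9 tested fell and 1 rose, with a median of -0.92, beside 1.72% lower and 1.48% higher over all genes. In DESeq2 5 of them fell (1345 of 18863 genes called in either direction) and in limma-voom 3 (566 genes called), with 1 higher in each. Under the replicate block 7 of them fell and 1 rose, with a median of -1.01, beside 9.18% lower and 9.56% higher over all genes. APRR3, FKF1 (ADO3 in the deposited table), ELF3, a scaffold of the evening complex, and GI, a partner of FKF1, fell in both in edgeR. In total RNA, APRR3 averaged only 0.29 CPM in tfIIfα2 and 3.96 CPM in its wild type. FKF1 averaged 0.952 CPM in tfIIfα2 and 9.3 CPM in its wild type. TOC1 (APRR1 in the deposited table), a target and repressor of CCA1 and LHY, averaged 15.9 ± 2.25 CPM in tfIIfα1 and 40.3 ± 0.942 CPM in its wild type, and 8.84 ± 0.835 CPM in tfIIfα2 and 19.8 ± 7.85 CPM in its wild type (SD, n = 3 each). Its log2 differences were -1.34 ± 0.09 and -1.16 ± 0.27 (adjusted p = 4.4e-08 and 0.061, edgeR, and 0.0042 with the block in tfIIfα2). APRR5, LUX and BOA fell in tfIIfα1 (-1.03, -0.66 and -0.97) and were at -1.25, -0.86 and -0.92 in tfIIfα2, where none of the 3 passed in edgeR and APRR5 and LUX passed with the block. ELF4 fell in tfIIfα1 (-0.75 ± 0.12). It was too low to be tested in total RNA, with means of 0.0488 CPM in tfIIfα2 and 0.0806 CPM in its wild type. JMJD5, a jumonji-type gene expressed in the evening, went against its list, with 0.18 ± 0.18 in tfIIfα1 and a rise of 1.57 ± 0.32 in tfIIfα2 (adjusted p = 0.44 and 0.045, edgeR).

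Per kilobase of annotated exon, LHY stood at log2 ratios of -0.66, -0.68 and -0.24 to TOC1 in tfIIfα1, against -4.55, -4.68 and -4.13 in its wild type. The ratios were 1.1, 1.17 and 0.99 in tfIIfα2, against -1.83, -2.79 and -3.20 in its wild type. CCA1 stood at 0.36, 0.45 and 0.53 in tfIIfα1, against -1.84, -2.16 and -1.75 in its wild type, and at 1.09, 1.24 and 0.81 in tfIIfα2, against -0.28, -1.05 and -1.63 in its wild type. CCA1 was therefore above TOC1 in all 6 mutant libraries and below it in all 6 wild-type libraries. These ratios combine values already given and carry no test of their own.

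**Figure D4:**
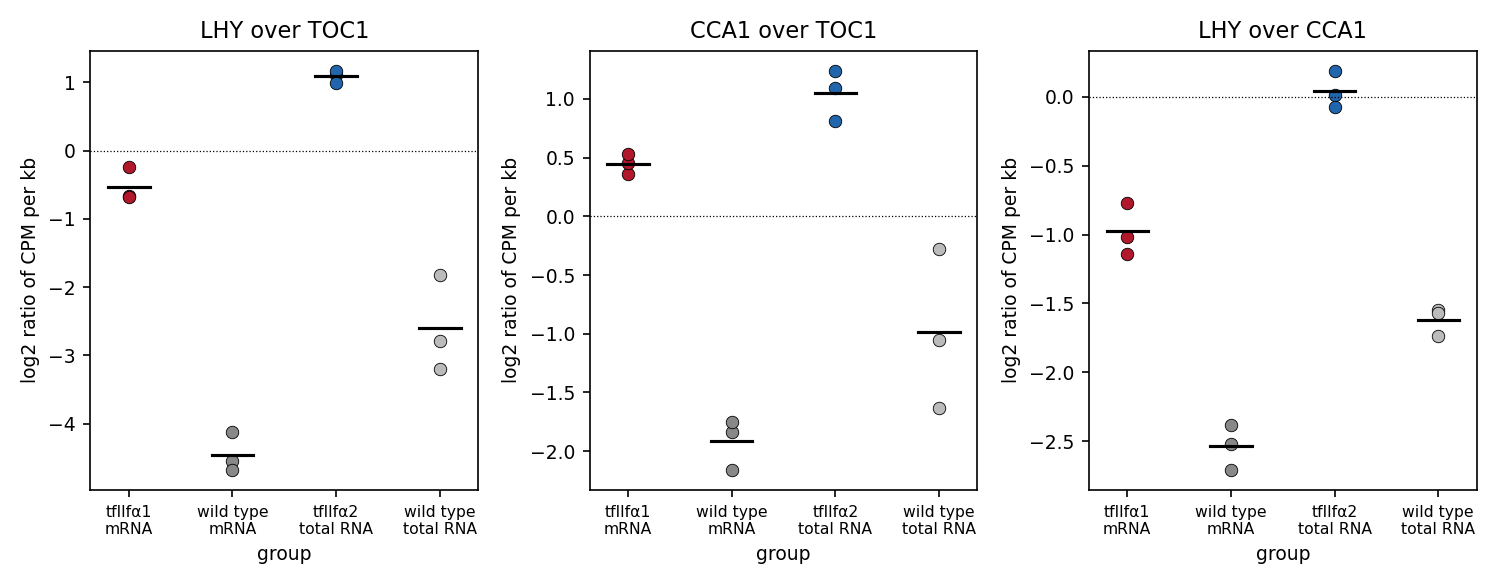
Log2 ratio of CPM per kilobase of annotated exon for LHY over TOC1, CCA1 over TOC1 and LHY over CCA1. Points are libraries and bars are means over 3, with each mutant left of the wild type of its kit. LHY over TOC1 is -0.68 to -0.24 in tfIIfα1 against -4.68 to -4.13 in its wild type, and 0.99 to 1.17 in tfIIfα2 against -3.20 to -1.83 in its wild type.

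Genes that the clock drives were counted in a morning and an evening list, and the lists were not tested against each other. Of 13 morning output genes, 6 rose and 1 fell in tfIIfα1, beside 18.7% higher and 19.6% lower over all genes, with a median of 0.17. In tfIIfα2, 0 of 12 passed in edgeR (5 higher at an unadjusted p under 0.05) and 0 in limma-voom. In DESeq2, which called 1345 of 18863 genes in either direction, 4 rose. With the replicate block 6 rose (9.56% of all genes). The median in tfIIfα2 was 0.51. Named for the smallest p of the list, the CONSTANS-like genes COL1 and COL2 were at 1.25 ± 0.15 and 0.82 ± 0.10 in tfIIfα1 and at 1.21 ± 0.29 and 0.73 ± 0.21 in tfIIfα2. CDF1, a repressor of CONSTANS that FKF1 removes, was at 0.49 ± 0.07 and 0.46 ± 0.11, and CDF5 at 0.41 ± 0.10 and 0.56 ± 0.25. Of 4 evening output genes, all fell in tfIIfα1 (COR27 -2.57, COR28 -2.11, GRP7 -0.92 and GRP8 -0.25, log2), beside 19.6% lower over all genes. In tfIIfα2 they were at -3.48 ± 0.77, -2.40 ± 0.83, -1.36 ± 0.36 and -0.59 ± 0.22 (SE). There, 0 passed in edgeR (4 lower at an unadjusted p under 0.05) and 0 in limma-voom. In DESeq2, which called 1345 of 18863 genes in either direction, 3 fell. With the replicate block 4 fell, beside 9.18% lower over all genes. COR27 and COR28 were low in total RNA, with means of 0.12 and 0.285 CPM in tfIIfα2 and 1.38 and 1.51 CPM in its wild type.

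Other clock factors and light input genes, not known mainly for a morning or evening peak, moved in both directions in tfIIfα1. Of 17 other clock factors, 2 rose and 5 fell in tfIIfα1, near the 38.4% called over all genes, with a median of -0.16. In tfIIfα2, 0 passed in edgeR (1 lower at an unadjusted p under 0.05) or limma-voom. In DESeq2, which called 1345 of 18863 genes in either direction, 1 gene fell. FIO1, which encodes an RNA methyltransferase, fell with the block (-0.76 ± 0.16, adjusted p = 0.014). The genes named from these lists were those with the smallest p. The F-box gene ZTL (ADO1) fell in tfIIfα1 (-0.34 ± 0.07), as did CHE (TCP21), a TCP factor that binds the CCA1 promoter (-0.31 ± 0.07), and CKB4, a subunit of casein kinase 2 that phosphorylates CCA1 (-0.26 ± 0.07). Of 11 light input genes, 1 rose (HYH, 0.57 ± 0.16) and 5 fell in tfIIfα1, beside 18.7% higher and 19.6% lower over all genes. Their median was -0.20. In tfIIfα2, 0 of 11 passed in edgeR, DESeq2 or limma-voom, and 0 had an unadjusted p under 0.05 in edgeR, while HYH passed with the block (0.56 ± 0.13, adjusted p = 0.022). PIF1 (-0.38 ± 0.08) and PIF3 (-0.45 ± 0.10) fell in tfIIfα1. FAR1 (-0.87 ± 0.07), which activates light-responsive genes, also fell in tfIIfα1 and was at -0.17 ± 0.13 in tfIIfα2. Its log2 fold change differed between the comparisons (0.69 ± 0.14, adjusted p = 0.047, edgeR interaction). FAR1 (AT4G15090) lies in the chromosome 4 segment whose genes were removed in an alternative fit. Allele, kit and wild-type line cannot be told apart for it.

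**Figure D5:**
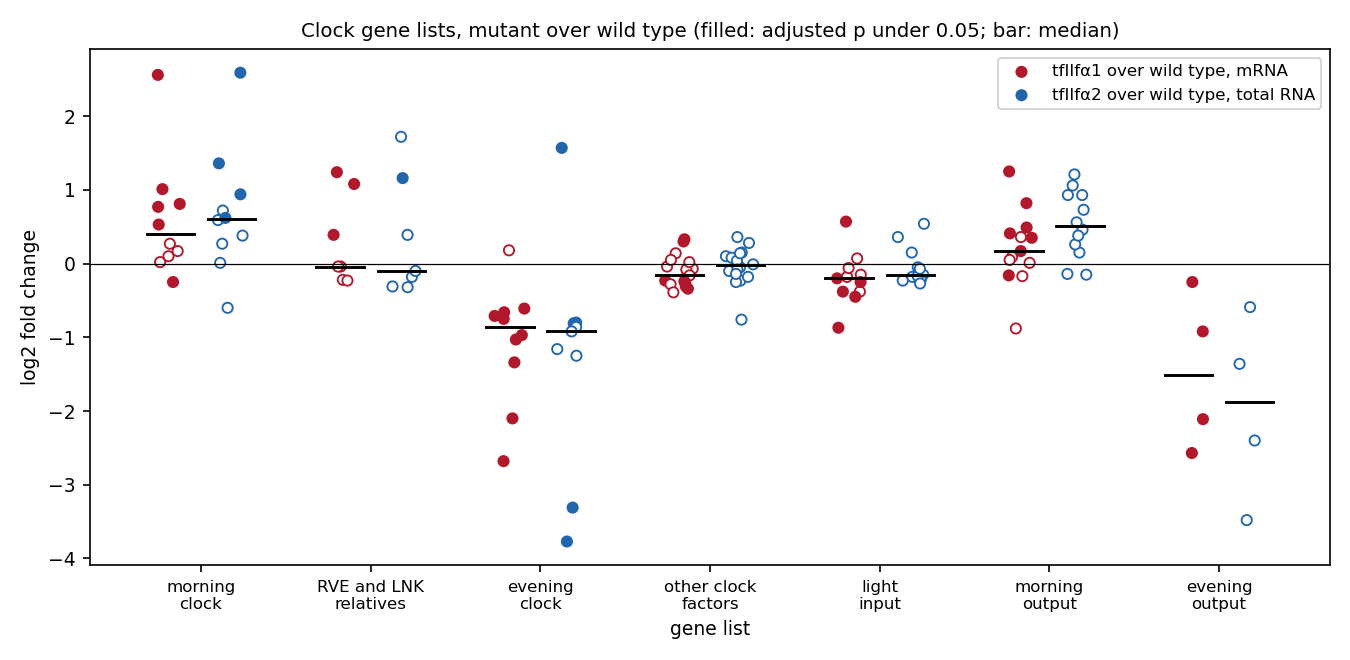
Log2 fold changes of the tested genes of 7 clock-related lists, tfIIfα1 (red) left of tfIIfα2 (blue), each over the wild type of its kit. Filled points passed an adjusted p of 0.05 in edgeR and bars are medians. Medians are 0.40 and 0.61 for the morning clock genes and -0.86 and -0.92 for the evening clock genes.

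Genes with the nearest pattern were found by the root mean square difference over 12 libraries of log2(CPM + 0.01), each taken relative to the wild-type mean of its kit, among 15958 genes with a mean of at least 1 CPM in both kits. Nearest to LHY were AT1G20390 (0.377), AT1G11070 (0.381) and AT4G25020 (0.425). CCA1 was nearest to AT1G23740 (0.131), AT1G79245 (0.135) and AT2G41250 (0.142). APRR9 was nearest to AGO6 (0.147), PCO2 (0.148) and AT5G18770 (0.161), and APRR7 to HGL1 (0.087), B'ALPHA (0.093) and AT5G27460 (0.099). No other member was among these genes, and the nearest genes to LHY lay further off than those to the other 3.

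In the authors' deposited table, LHY had log2 fold changes of 2.57 in tfIIfα1 and 2.60 in tfIIfα2, CCA1 1.02 and 0.95, and RVE8 0.78 and 1.37. The authors' deposited table gives APRR7 an adjusted p of 0.31 in tfIIfα1 and 0.0053 in tfIIfα2, APRR9 1.4e-05 and 0.0052, and RVE1 0.44 and 0.022. At a threshold of 0.05 the authors' deposited table thus holds 5 members in tfIIfα1 (LHY, CCA1, APRR9, RVE8 and LNK2). In tfIIfα2 it holds 7 (these and APRR7 and RVE1). The share of all genes that pass this threshold in the authors' deposited table is not given here. These member counts therefore cannot be weighed against all genes or against each other.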

How the data were processed

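RNA-seq libraries were made per the labels' protocols with a stranded mRNA kit or a stranded total RNA kit. Bowtie2 2.2.9, FastQC 0.11.5, edgeR 3.20.1 and the TAIR10 build are listed, without their roles, in the submitters' processing notes. Per the file headers, the authors deposited raw counts per gene, log2 fold changes and adjusted p-values. The normalized counts and group means that the authors deposited are whole numbers and are treated as a score. Count columns of no sample (6) and normalized columns (18) were not used. Over 5666 genes, a weighted sum of the 3 columns used for tfIIfα1 came within 0.33% of the mean that the authors deposited.

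Counts were fitted with edgeR 4.0.16 (R 4.3.3): filterByExpr, TMM, the quasi-likelihood test, Benjamini-Hochberg adjustment over all tested genes with calls at 0.05. Biological variation (BCV) came to 0.0827 in mRNA and 0.184 in total RNA. CPM use TMM library sizes. Each SE was derived from the log2 fold change and its F statistic. DESeq2 1.42.0 and limma 3.58.1 served as alternatives. In simulated counts with few randomly drawn genes changed, 2-fold changes were recovered in 89.6% (tfIIfα1, 20371 genes) and 46.3% (tfIIfα2, 18863 genes). In the data 38.4% of genes were called in tfIIfα1, so these shares are not the power of the real comparisons.

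Same-numbered total RNA libraries correlated at 0.64, 0.23 and 0.53 in their deviations from group means. On that ground the numbers in the titles were assumed to be pairs, which the titles do not state. The numbers of 2 tfIIfα1 columns are ambiguous. Members, lists and tests were chosen with earlier results of these data known. Named genes were all members, relatives and evening genes, and up to 4 genes by smallest p from other clock lists. The 3 nearest patterns of 4 members, RAP74 and genes that overlap members were named too. Leaf markers called in tfIIfα1 and the root marker at 0 there were named by these results.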

Additional observations from a re-analysis of the deposited data

How the results depend on the processing

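The count of members called in tfIIfα1 was 6 and stayed between 5 and 7 when each library was left out, and was 5 or 6 under RLE normalization, both other count filters, removal of organelle or chromosome 4 segment genes, DESeq2, limma-voom, 1 fit over 12 libraries, a threshold of 0.01 and removal of both libraries a and b. APRR7 was the member lost in each case with 5. In tfIIfα2 the count was 4. It was 1 (LHY) at a threshold of 0.01 and 8 with the replicate block, which also called RAP74 (adjusted p = 0.017). It lay between 1 and 3 when each library was left out, where the total number of genes called fell from 603 to between 4 and 169. DESeq2 called 5 members and 1 fit over 12 libraries 6. The other alternatives gave 4, and the interaction gave 0 under all that were run. No called member changed direction under any of these alternatives. Over all genes, the 603 called in tfIIfα2 became 28 at a threshold of 0.01, 1345 in DESeq2, 2926 in 1 fit over 12 libraries and 3535 with the block. In tfIIfα1 the 7820 genes called became 5137 at a threshold of 0.01, 4329 in 1 fit over 12 libraries and 4838 without libraries a and b. The 159 called in the interaction became 92 at a threshold of 0.01 and 333 in DESeq2. The cause of these shifts was not tested. Fits with a library left out also had fewer samples. A fit with the replicate number as a block was not run for tfIIfα1 because the numbers of 2 columns are ambiguous. Depth limits the low members, such as RVE8 with 35 to 96 wild-type counts in total RNA.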
